A study of Mus musculus with 29 samples.

Results

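The genes described here make, sense and remove prostaglandins and lipoxygenase products: Ptgs1, Ptgs2, Ptges, Ptgis, Ptgds, Hpgd, Ptger4, Alox5, Alox12 and Alox15. They were taken as the rows of the count table whose Ensembl identifier carries one of these symbols, which gave 10 of 54532 genes. Poly(A) RNA from the colon was sequenced for 29 mice, each giving 1 library, which covered 6 colitis models and 3 untreated control groups, and every model was set against the control group named for it here. The total count per mouse ran from 10725564 to 14977094, and the tests covered the 18616 genes whose counts averaged 3 or more, 9 of the 10 genes among them.

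By the labels, untreated Balb/C mice (wild-type controls, n = 3) were the control for 3 groups of Balb/C mice. The DSS group (n = 3) drank 3% dextran sulfate sodium, which injures the epithelium, for 5 days and was culled at day 10. The DNBS group (n = 3) received 3 mg of the hapten DNBS in 50% ethanol rectally. The IL-10 blockade group (n = 4) is labelled as given an IL10 blocking antibody, with 750 µg of an antibody against the IL-10 receptor and culling after 4 weeks in the protocol. The study's methods describe Il10-/- mice for this model and C57BL/6 mice for the wild-type and DSS groups, and Il10 counts in the 4 mice were 61 to 111, against 1 to 4 in the wild-type controls. Untreated C57BL/6 Rag1-/- mice, which lack T and B cells (n = 3), were the control for 2 further groups labelled C57BL/6. The sample descriptions name Rag1 for the anti-CD40 group and not for the T-cell transfer group. The T-cell transfer group (TCT, n = 3) received naive CD4+ T cells and was culled after 6 to 8 weeks, and its protocol calls the recipients Rag2-/-. The anti-CD40 group (n = 3) received 50 µg of agonist antibody and was culled after 7 days. TRUC mice (n = 4), Balb/C Tbx21-/- x Rag2-/- and untreated, develop colitis without treatment and were compared with untreated Balb/C Rag2-/- mice (n = 3). No age is given in the labels. The count column of TRUC mouse 4 is named TRUC_8W and that of TRUC mouse 5 TRUCB372, unlike those of the other TRUC mice, and the labels do not explain these names.

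Several libraries stood apart or went against their labels. Rag1 counts were 20 to 33 in the TCT mice and 0 to 4 in the libraries labelled Rag1-/- control, while Rag2 counts were 6 to 20 in those controls, 48 to 99 in the libraries labelled anti-CD40, 15 to 25 in the Rag2-/- controls and 57 to 94 in TRUC. The TCT libraries had no Rag2 count. TCT and the libraries labelled as its control thus differed in Rag1 and Rag2 counts, so genotype cannot be told apart from model in any TCT result. The labels were kept, and both comparisons were repeated with another control group (TCT with the wild-type controls, anti-CD40 with the Rag2-/- controls). Tbx21 had 26 to 52 counts in TRUC, and since the deleted part of the gene was not separated from the rest, these counts check nothing. In the DSS group, mouse 8 stood apart from mice 5 and 6 in several of the genes below, so values are also given without it. The epithelial markers Epcam, Cdh1, Vil1, Krt8, Krt20, Slc26a3 and Car1 were present in every group, with a summed level of 5910 to 18900 CPM per mouse.

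Prostaglandins are made from arachidonic acid, which phospholipases free from membranes. The cyclooxygenases (Ptgs1, made at a steady level in many cells, and Ptgs2, induced by injury and cytokines) form an unstable intermediate that terminal synthases turn into prostaglandin E2 (Ptges), prostacyclin (Ptgis) or prostaglandin D2 (Ptgds), and Hpgd, which colon epithelium expresses strongly, inactivates prostaglandin E2. Ptger4 is a receptor of prostaglandin E2, and the lipoxygenases act on the same substrate to give leukotrienes (Alox5) and other hydroxylated lipids (Alox12, Alox15).

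The bases upstream of Ptgs2, Ptges and Hpgd are shown because these 3 genes carry the clearest contrast in DSS, a rise of the inducible enzymes beside a fall of the inactivating enzyme. They are the 250 bases before the RefSeq start on GRCm38.p6, read 5′ to 3′ on the gene's strand, at chr1:150099781-150100030 (+) for Ptgs2, chr2:30903298-30903547 (-) for Ptges and chr8:56294302-56294551 (+) for Hpgd. The Ptges window lies inside the span of this gene in the GENCODE M21 annotation (chr2:30889471-30929863), so it is upstream of the RefSeq start only. For Hpgd, unlike the others, the bases just after the RefSeq start matched no GENCODE transcript of the gene. Capitals mark matches to the motifs searched.
Ptgs2: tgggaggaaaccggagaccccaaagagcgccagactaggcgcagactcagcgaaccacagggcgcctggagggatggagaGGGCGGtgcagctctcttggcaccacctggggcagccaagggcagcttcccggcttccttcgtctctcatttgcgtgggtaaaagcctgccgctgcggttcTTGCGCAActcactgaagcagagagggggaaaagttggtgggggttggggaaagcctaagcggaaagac
Ptges: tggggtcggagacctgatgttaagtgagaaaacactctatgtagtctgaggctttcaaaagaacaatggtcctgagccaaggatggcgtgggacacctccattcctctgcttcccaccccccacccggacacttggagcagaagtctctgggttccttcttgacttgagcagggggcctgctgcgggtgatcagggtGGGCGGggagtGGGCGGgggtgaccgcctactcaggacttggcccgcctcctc
Hpgd: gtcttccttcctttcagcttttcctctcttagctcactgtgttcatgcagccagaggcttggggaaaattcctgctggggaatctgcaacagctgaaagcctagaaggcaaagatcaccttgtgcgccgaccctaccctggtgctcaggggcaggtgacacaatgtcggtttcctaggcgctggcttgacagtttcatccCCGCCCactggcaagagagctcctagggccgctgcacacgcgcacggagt

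On both strands, 8 motifs were searched in these windows and in the same window of 32841 RefSeq starts. The GC box (GGGCGG) was present at all 3, at Ptges in 2 copies, and at 6 of the 8 member genes with an entry, against 32.7% of all windows. A C/EBP site (TTGCNNAA), a palindromic match that was found on both strands at bases 69 to 62 before the start, was present at Ptgs2 alone of the 8, against 9.57% of all windows. The TATA box (TATAAA, 12.4% of windows), E box (CACGTG, 6.02%), cAMP response element core (TGACG, 17.8%) and STAT site (TTCNNNGAA, 7.02%) had no match at any of the 8. The CCAAT box (CCAAT, 33.9%) had a match at Ptger4, and the kappaB consensus (3.9%) at Ptgds. Ptgis and Alox15 have no entry.

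The models differed in which of the genes changed, while Hpgd was below every control mouse in each of them. Its fall passed the test described next in 4 of the 6 models, and not in DNBS or anti-CD40. How many of all genes lay wholly below their controls in this way was not counted. A gene was called where the adjusted p of edgeR's quasi-likelihood test (Benjamini-Hochberg over the 18616 genes tested) was under 0.05. In DSS, 5 of the 9 tested genes rose (Ptgs1, Ptgs2, Ptges, Ptgis and Alox5), where 17.7% of all tested genes rose, and Hpgd fell, where 16.3% fell. Without DSS mouse 8, 3 rose (Ptgs2, Ptges and Ptgis) and Hpgd fell. The shares above are those of the fit of all mice. In the fits without 1 DSS or control mouse, 1940 to 3242 of all genes rose and 1895 to 3079 fell. In IL-10 blockade, Ptger4 rose (1 of 9, against 27.2% of all genes) and Ptgis, Hpgd and Alox5 fell (3 of 9, against 26.1%). In DNBS, Alox12 rose (1 of 9, against 3.95%) and 0 of 9 fell, against 2.21%, with 1 (Hpgd) at an unadjusted p under 0.05 and the same 1 called by DESeq2.

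In TCT, Ptges and Alox15 rose (2 of 9, against 16.1% of all genes) and Hpgd fell (1 of 9, against 14%). Of the libraries labelled anti-CD40, 0 of 9 genes rose, against 10.9%, with 0 at an unadjusted p under 0.05 and 1 (Alox15) by DESeq2, and Ptger4 and Alox12 fell (2 of 9, against 10.7%). In TRUC, 0 of 9 rose by this test, against 22.4%, with 0 at an unadjusted p under 0.05, and Ptgs1, Ptgis and Hpgd fell (3 of 9, against 23.4%). By DESeq2, and by edgeR on the 2 groups alone, 3 rose in TRUC (Ptgs2, Ptges and Alox15). Over all alternatives at 0.05, 3373 to 5182 of all genes rose in TRUC. By edgeR's F test the change was not equal over the 6 models for 8 of 9 genes (all but Alox15), as for 60.5% of all tested genes. These shares lie on both sides of those of all genes, and the comparisons that use the same control mice are not independent of each other. Under upper quartile scaling the median log2 fold change of all genes shifted by -0.106 in TRUC and -0.166 in IL-10 blockade, and the share of higher genes among those called went from 64.1% to 51% in DNBS and from 51% to 38.4% in IL-10 blockade.

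**Figure D1:**
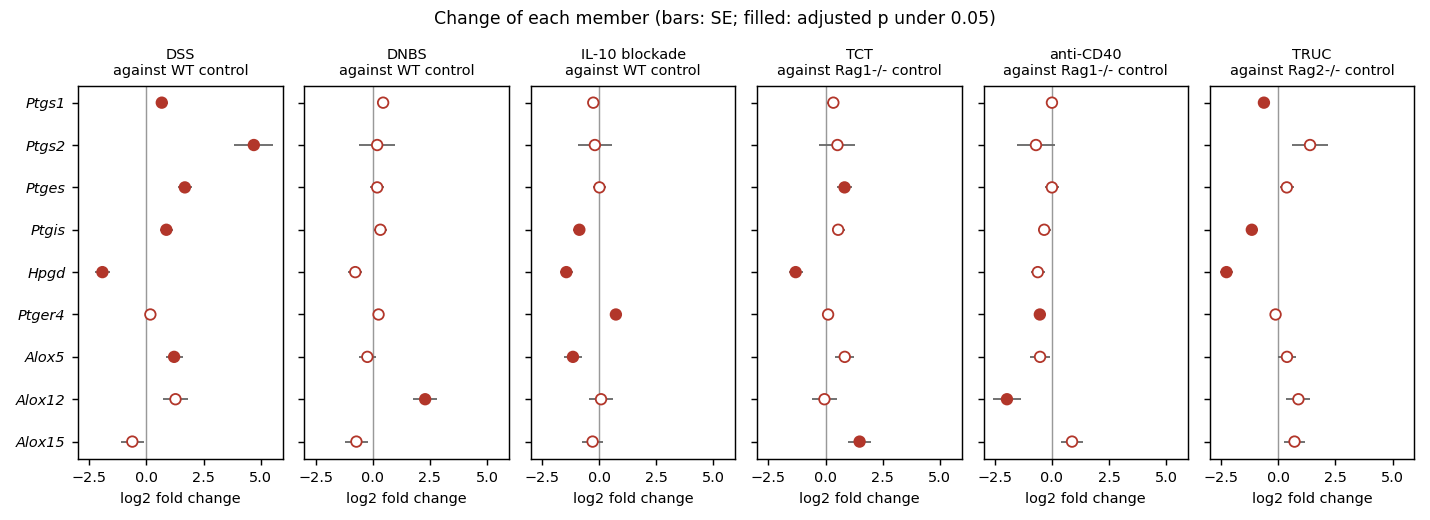
Log2 fold change (x axis, no unit) of the 9 tested genes (y axis) in each model against its own control, from edgeR, with bars for the standard error and filled circles for an adjusted p under 0.05. Hpgd lies left of 0 in every panel, from -0.62 in anti-CD40 to -2.27 in TRUC, and Ptgs2 lies furthest right in DSS at 4.70.

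Hpgd (chr8:56294585-56321043, GENCODE M21 on GRCm38, like the positions below), the enzyme that inactivates prostaglandin E2, had the highest mean of the 10 genes per length in all groups but DSS, where mouse 8 alone had more Ptgs2. Its level was 237, 219 and 212 CPM (counts scaled to a TMM-adjusted library of 1000000) in the 3 wild-type controls. In the DSS mice 5, 6 and 8 it was 54.8, 94.3 and 26.5 CPM. All 3 DSS mice lay below all controls, with a log2 fold change of -1.93 (SE 0.311, adjusted p = 6.98e-05), and without mouse 8 it was -1.58 (adjusted p = 0.000384). The 4 mice with IL-10 blockade had 77.3, 69.8, 70.6 and 110 CPM, and the 3 DNBS mice had 164, 120 and 109 CPM. Both groups lay below the controls without overlap. The fall passed the test in IL-10 blockade (log2 fold change -1.44, SE 0.28, adjusted p = 0.000187) and not in DNBS (-0.77, SE 0.301, adjusted p = 0.119), where edgeR on the 2 groups alone gave -0.77 with an adjusted p of 0.0483.

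In the Rag2-/- controls Hpgd stood at 194, 191 and 226 CPM, and in the 4 TRUC mice at 41.7, 24.7, 44.7 and 57.7 CPM. The highest TRUC mouse was thus far below the lowest control, and the log2 fold change of -2.27 (SE 0.285, adjusted p = 2.62e-06) was the largest fall of any of these genes in any model. The libraries labelled Rag1-/- control had 191, 134 and 141 CPM, the TCT mice 72.9, 62.6 and 51.9 CPM and the anti-CD40 mice 114, 85.8 and 104 CPM. Neither model overlapped with these controls. The fall passed the test in TCT (-1.31, adjusted p = 0.00207; -1.83 and 0.000158 against the wild-type controls) and not in anti-CD40 (-0.62, adjusted p = 0.146), where it passed against the Rag2-/- controls (-1.01, adjusted p = 0.018). Since colon segments were measured whole, fewer cells of a type and less RNA per cell cannot be told apart. Relative to the summed level of the 7 epithelial markers, Hpgd was 22.1 to 29.2 per 1000 in the wild-type controls, between 4.24 and 12.1 in DSS, between 11.2 and 20.5 in DNBS and between 5.33 and 7.13 in IL-10 blockade, 17.2 to 21 in the Rag2-/- controls and 2.26 to 5.22 in TRUC, and 14.5 to 20.6 in the Rag1-/- controls, 5.55 to 7.15 in TCT and 7.47 to 10.3 in anti-CD40. On this scale too every model lay below its own control in every mouse. The 7 markers did not move together, so the ratio is not a measure of Hpgd per epithelial cell. In TRUC 3 rose and 2 fell (log2 fold changes -3.69 to 1.45), and in IL-10 blockade 4 rose and 1 fell (-1.48 to 2.54). For anti-CD40 these counts were 2 and 1 (-2.74 to 1.34), for DSS and TCT 1 and 1, and for DNBS 0 and 0.

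**Figure D2:**
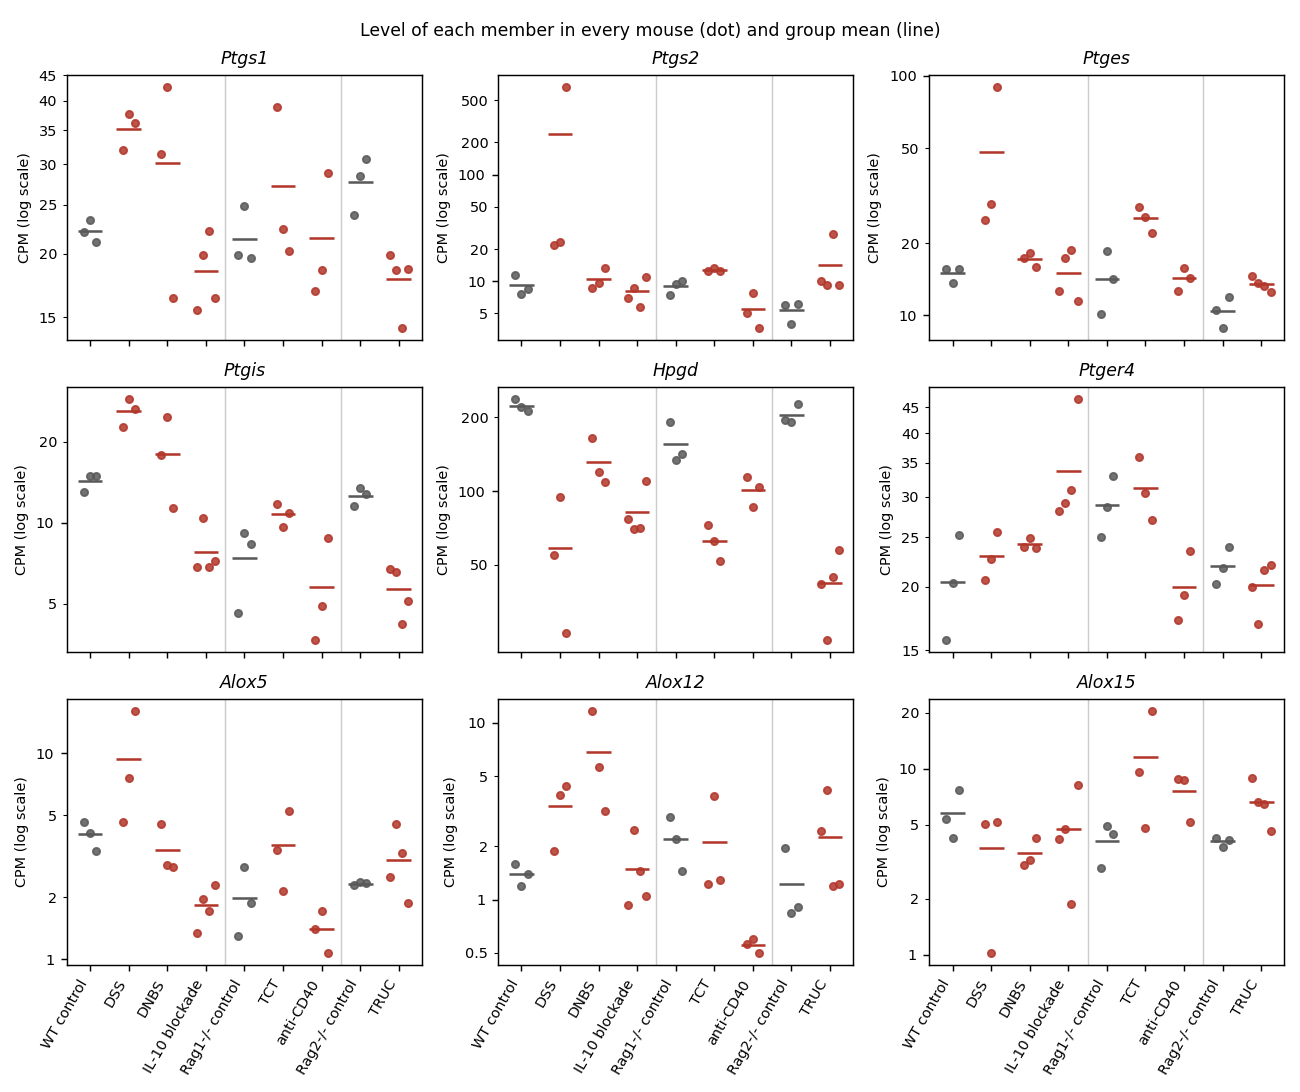
Level (y axis, CPM on a log scale) of the 9 tested genes in each of the 29 mice (dots), by group (x axis), with the group mean as a line, controls in grey and models in red, and grey vertical lines between the sets that share a control. Hpgd is lower in each model than in its control, and DSS mouse 8 is the highest dot for Ptgs2 (668 CPM), Ptges (90.3 CPM) and Alox5 (16 CPM).

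Ptgs2 (chr1:150100031-150108227), the inducible cyclooxygenase, changed by the largest amount in DSS, and most of that size came from 1 mouse. It stood at 11.4, 7.66 and 8.37 CPM in the wild-type controls and at 21.8, 23.2 and 668 CPM in DSS mice 5, 6 and 8, which correspond to 346, 340 and 8351 counts. All 3 DSS mice were above all controls, and mouse 8 was far above the other two. The log2 fold change was 4.70 (SE 0.852, adjusted p = 0.000226) with mouse 8 and 1.30 (SE 0.37, adjusted p = 0.015) without it. Tested on the 2 groups alone, the adjusted p was 0.0545, and DESeq2 gave no adjusted p for this gene. In TRUC, Ptgs2 stood at 10, 9.16, 27.8 and 9.28 CPM, against 5.93, 3.98 and 6.12 CPM in the Rag2-/- controls. The 4 TRUC mice were all above the controls (log2 fold change 1.39, SE 0.778, adjusted p = 0.148 in the fit of all groups; 1.38 and 0.0112 on the 2 groups alone). In the fits of all groups that left out a mouse of either group, the change was 0.83 to 1.55 and was not called. The spread that the fit of all groups shares over the 9 groups includes DSS mouse 8.

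In TCT, Ptgs2 stood at 12.5, 13.3 and 12.5 CPM, a narrow range above the 7.38 to 9.98 CPM of the libraries labelled Rag1-/- control (log2 fold change 0.52, adjusted p = 0.667). DNBS mice had 8.66, 9.54 and 13.3 CPM, mice with IL-10 blockade 7, 8.63, 5.75 and 10.9 CPM, and anti-CD40 mice 5.07, 7.8 and 3.66 CPM. These 3 groups overlapped with their controls, with log2 fold changes of 0.19, -0.19 and -0.70 and adjusted p of 0.91, 0.847 and 0.583.

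Ptgs1 (chr2:36230426-36252272), the steadily made cyclooxygenase, moved in a narrower range and in different directions. Its means ran from 17.9 ± 2.46 CPM (SD, n = 4) in TRUC to 35.3 ± 2.96 CPM (n = 3) in DSS, and each pair of neighbouring groups in this order overlapped. DSS mice had 32, 37.7 and 36.2 CPM against 22.1, 23.3 and 21.1 CPM in the wild-type controls, with no overlap (log2 fold change 0.67, SE 0.261, adjusted p = 0.0493). That call was lost when any of the 6 mice was left out, with adjusted p from 0.0561 to 0.121. TRUC mice had 19.9, 18.6, 14.3 and 18.7 CPM against 23.8, 28.5 and 30.8 CPM in the Rag2-/- controls, again with no overlap (log2 fold change -0.63, adjusted p = 0.0375), and this call was lost in 5 of the 7 fits that left out a mouse. In DNBS the 3 mice spread from 16.4 to 42.7 CPM (0.45, adjusted p = 0.297), and in TCT from 20.3 to 38.9 CPM (0.34, adjusted p = 0.348). IL-10 blockade (15.5 to 22.2 CPM) and anti-CD40 (16.9 to 28.9 CPM) also overlapped with their controls, with log2 fold changes of -0.26 and 0.00. The 2 cyclooxygenases thus differed in TRUC, where Ptgs2 was above and Ptgs1 below every control mouse. The difference between the 2 genes was not tested. A stretch of 148 bases of Ptgs1 exons lies opposite Gm43621, and without strand in the counts the reads there cannot be told apart.

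Ptges (chr2:30889471-30929863), the inducible synthase of prostaglandin E2, rose in DSS and TCT. In DSS it stood at 25, 29.1 and 90.3 CPM, against 15.7, 13.7 and 15.6 CPM in the wild-type controls. All DSS mice were higher, and mouse 8 was again the highest (log2 fold change 1.68, SE 0.314, adjusted p = 0.000298; without mouse 8, 0.85 and 0.00422). The TCT mice had 28.3, 25.8 and 22.2 CPM, all above the 10.1, 18.5 and 14.2 CPM of the libraries labelled Rag1-/- control (log2 fold change 0.83, SE 0.313, adjusted p = 0.0462). This call was lost in 5 of the 6 fits without a mouse and against the wild-type controls (0.76, adjusted p = 0.0651). TRUC mice had 14.6, 13.6, 13.3 and 12.5 CPM against 10.5, 8.88 and 11.9 CPM, a small difference without overlap (0.37, adjusted p = 0.323 in the fit of all groups and 0.0355 on the 2 groups alone). DNBS also lay just above its controls (15.9 to 18.2 CPM; 0.19, adjusted p = 0.739), while IL-10 blockade (11.5 to 18.7 CPM) and anti-CD40 (12.7 to 15.8 CPM) overlapped with theirs, with log2 fold changes of 0.01 and 0.00.

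Ptgis (chr2:167191805-167240604), the prostacyclin synthase of vessels and stroma, went up in DSS and down in TRUC and IL-10 blockade. DSS mice had 22.8, 28.9 and 26.5 CPM and the wild-type controls 13, 14.9 and 15 CPM (log2 fold change 0.87, SE 0.274, adjusted p = 0.0172), and here mouse 8 lay between the other two. Without control mouse 1 the adjusted p was 0.0641. Mice with IL-10 blockade had 6.83, 10.4, 6.86 and 7.21 CPM, all below the same controls (-0.87, SE 0.262, adjusted p = 0.00752). TRUC mice had 6.71, 6.58, 4.22 and 5.13 CPM, all below the 11.6, 13.5 and 12.8 CPM of the Rag2-/- controls (-1.16, SE 0.265, adjusted p = 0.0012). TCT lay above its controls (9.66 to 11.8 against 4.62 to 9.14 CPM) with 0.55 (adjusted p = 0.152), and anti-CD40 overlapped with them (-0.34, adjusted p = 0.427; -1.12 and 0.00715 against the Rag2-/- controls). The DNBS mice spread from 11.4 to 24.7 CPM, with overlap (0.33, adjusted p = 0.47). Exons of 1110018N20Rik cover 156 bases of Ptgis on the other strand.

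Markers of stroma and vessels are given beside Ptgis and Ptgs1, and not all of them went the same way. In TRUC, where both genes fell, 0 of 5 endothelial, 1 of 6 fibroblast and 2 of 6 smooth muscle markers fell (23.4% of all genes fell). In DSS, where both rose, 2 of 6 fibroblast and 0 of 6 smooth muscle markers rose (17.7% of all genes rose). With IL-10 blockade, where Ptgis fell, 3 of 6 and 5 of 6 fell (26.1% of all genes). All 5 endothelial markers rose in DSS, where they summed to 244 to 334 CPM against 157 to 167 CPM in the controls, and in TRUC they summed to 91.3 to 122 against 114 to 139 CPM. In IL-10 blockade 1 rose and 1 fell, and the sum was 79.8 to 157 CPM. The summed level of 6 smooth muscle markers was 6490 to 8060 CPM in the wild-type controls, 4730 to 11600 in DSS and 2630 to 4960 in IL-10 blockade, and 5980 to 6590 in the Rag2-/- controls and 2970 to 4350 in TRUC. For the 6 fibroblast markers these sums were 1600 to 1840, 2120 to 3130 and 1010 to 1530 CPM, and 1200 to 1460 and 1360 to 1820 CPM. Per 1000 of the fibroblast sum, Ptgis was 8.77 to 11.3 in the Rag2-/- controls and 3.09 to 4.16 in TRUC, but 7.09 to 9.39 in the wild-type controls and 5.44 to 7.15 in IL-10 blockade, with overlap. Per 1000 of the smooth muscle sum, TRUC lay at 1.29 to 1.8 against 1.94 to 2.08, and IL-10 blockade at 2.1 to 2.61 against 1.77 to 2.31. Ptgs1 was 4.57 to 5.08 per 1000 of the smooth muscle sum in TRUC and 3.98 to 4.68 in its controls, and 10.2 to 13.2 against 19.3 to 23.8 per 1000 of the fibroblast sum, so that the direction differed between the 2 scales. The part of these cell types in the results was not tested.

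Ptgds (chr2:25466709-25470046), a prostaglandin D2 synthase, had at most 2 counts in any mouse and was not tested. A count of 0 allows up to 3 counts, which is 0.179 to 0.314 CPM in these libraries, so no fold is given and a change was not detectable at this depth.

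Ptger4 (chr15:5206661-5244187), the prostaglandin E2 receptor, rose in IL-10 blockade and fell in anti-CD40. Mice with IL-10 blockade had 28.2, 29.2, 30.9 and 46.7 CPM against 15.7, 20.3 and 25.2 CPM in the wild-type controls, with no overlap (log2 fold change 0.73, SE 0.174, adjusted p = 0.00133). Without the highest mouse, the 4th, the change was 0.52 and still passed. Anti-CD40 mice had 17.2, 19.3 and 23.5 CPM, all below the 25, 28.7 and 33 CPM of the libraries labelled Rag1-/- control (-0.53, adjusted p = 0.0413). Against the Rag2-/- controls (20.2 to 23.9 CPM) this became -0.13 (adjusted p = 0.637), and the call was also lost in 4 of the 6 fits without a mouse and without the filter on low counts (0.0913). TCT overlapped with the Rag1-/- controls (0.11, adjusted p = 0.694) and was higher against the wild-type controls (0.61, adjusted p = 0.0141). DSS, DNBS and TRUC overlapped with their controls, with log2 fold changes of 0.17, 0.25 and -0.12. Exons of Gm15937 cover 1015 bases of this gene and those of Ttc33 a further 82, both on the other strand, so its counts may hold reads of these genes.

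Alox5 (chr6:116410077-116461178), the enzyme that starts leukotriene synthesis in myeloid cells, rose in DSS and fell in IL-10 blockade. DSS mice had 4.66, 7.59 and 16 CPM, the lowest of them next to the highest wild-type control (4.65, 4.13 and 3.36 CPM). The log2 fold change was 1.21 (SE 0.376, adjusted p = 0.0155), but 0.59 (adjusted p = 0.241) without mouse 8. Mice with IL-10 blockade had 1.35, 1.97, 1.72 and 2.3 CPM, all below those controls (-1.15, SE 0.377, adjusted p = 0.0135), and without control mouse 1 the change was -1.04 (adjusted p = 0.05). The other groups overlapped with their controls, with log2 fold changes from -0.52 in anti-CD40 to 0.84 in TCT. Beside these values, the 7 neutrophil markers summed to 508, 771 and 2550 CPM in DSS mice 5, 6 and 8, against 131 to 146 CPM in the controls and 244 to 928 CPM in IL-10 blockade, and the 7 macrophage markers to 1320, 1450 and 2430 CPM in DSS, against 508 to 602 CPM in the controls and 1090 to 1620 CPM in IL-10 blockade. All 7 markers of each list rose in DSS and, in TRUC, where Alox5 stood at 1.87 to 4.54 CPM against 2.3 to 2.37 CPM, all 7 of each rose as well. In IL-10 blockade both sums were above every control mouse while Alox5 was below them. Of the single markers there, 6 of 7 neutrophil markers rose and 0 fell. For the 7 macrophage markers, 3 rose and 1 fell (log2 fold changes -0.85 to 1.48). Their part in these results was not tested.

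Alox12 (chr11:70241457-70255353), known from platelets and skin, was low in all groups and rose in DNBS. The DNBS mice 11, 14 and 16 had 11.6, 5.66 and 3.16 CPM and the wild-type controls 1.6, 1.2 and 1.39 CPM, with no overlap (log2 fold change 2.29, SE 0.529, adjusted p = 0.0139). Mouse 11 was the highest, and without it the change was 1.65 (adjusted p = 0.045). Without control mouse 1 or 2 the adjusted p was 0.0625 or 0.0722. Anti-CD40 mice had 0.564, 0.6 and 0.502 CPM, from 6 or 7 counts each, and lay below the 2.92, 2.21 and 1.46 CPM of the Rag1-/- controls (-1.97, SE 0.616, adjusted p = 0.0246), a call lost in 5 of the 6 fits without a mouse and against the Rag2-/- controls (-1.12, adjusted p = 0.208). DSS mice had 1.89, 3.9 and 4.4 CPM, above their controls without passing the test (1.27, adjusted p = 0.0678; 0.0227 by DESeq2). TRUC, TCT and IL-10 blockade overlapped with their controls, with log2 fold changes of 0.88, -0.05 and 0.08 and adjusted p of 0.176, 0.967 and 0.918. The squamous markers Krt5, Krt14, Krt10, Krt13 and Ivl summed to 408, 30.4 and 26.1 CPM in DNBS mice 11, 14 and 16, in the order of their Alox12 levels, and to 9.51 to 11.6 CPM in the controls. In TRUC, where Alox12 overlapped with its controls, the squamous sum was 36.3 to 62.5 CPM against 11.4 to 15.3 CPM. The 5 platelet markers summed to 15.7 to 60.4 CPM in DNBS and 18.9 to 26.8 CPM in its controls. The part of either cell type was not tested.

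Alox15 (chr11:70344152-70352031), known from eosinophils and resident macrophages, rose in TCT by the fit of all groups. TCT mice 1, 3 and 5 had 9.69, 4.79 and 20.4 CPM against 2.92, 4.94 and 4.48 CPM in the libraries labelled Rag1-/- control (log2 fold change 1.49, SE 0.494, adjusted p = 0.0242). The groups overlapped, mouse 5 was the highest, and without it the change was 0.81 (adjusted p = 0.272). Against the wild-type controls (4.26 to 7.71 CPM) it was 1.00 (adjusted p = 0.116). The 4 markers listed for resident peritoneal macrophages (Gata6, Timd4, Icam2 and Selp) summed to 68.4 to 76.9 CPM in TCT against 64.7 to 68.1 CPM in its controls. As single markers, 2 of these 4 rose and 0 fell (log2 fold changes -0.03 to 2.38), where 16.1% of all genes rose. The 7 eosinophil markers summed to 3.16 to 4.8 against 1.92 to 2.19 CPM, with Ear6 at 0 in both. Their sum was 7.04 to 11.2 CPM in DSS, 7.84 to 13 in IL-10 blockade and 2.4 to 4.54 in DNBS, against 3.12 to 3.94 CPM. It was 4.8 to 5.97 against 2.34 to 4.21 CPM in TRUC and 1.79 to 2.44 against 1.92 to 2.19 CPM in anti-CD40. Their part was not tested. In TRUC (4.64 to 8.92 against 3.83 to 4.25 CPM) and anti-CD40 (5.17 to 8.83 against 2.92 to 4.94 CPM) every mouse was above its controls with adjusted p of 0.219 and 0.212. Both calls were made by DESeq2 (adjusted p of 0.00997 and 0.0244). DSS (1.03 to 5.2 CPM), DNBS (3.05 to 4.26 CPM) and IL-10 blockade (1.89 to 8.16 CPM) overlapped with their controls, with log2 fold changes of -0.62, -0.72 and -0.29 and adjusted p of 0.347, 0.385 and 0.619. This was the only gene of the 9 for which a difference in change over the 6 models did not pass the F test (adjusted p = 0.0935).

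Since Hpgd was lower in each model and Ptgs2 was higher in some, the 2 genes were also set against each other in each mouse. The ratio of Ptgs2 to Hpgd counts, a measure chosen after the values were seen and given without a test, was 0.0349 to 0.0483 in the wild-type controls. It was 0.247 and 0.397 in DSS mice 6 and 5 and 25.2 in mouse 8, between 0.0529 and 0.122 in DNBS and 0.0814 to 0.124 in IL-10 blockade. In the Rag2-/- controls it was 0.0208 to 0.0306 and in TRUC 0.161 to 0.621, and in the Rag1-/- controls it was 0.0387 to 0.0709, in TCT 0.171 to 0.241 and in anti-CD40 0.0352 to 0.0909. Every mouse of 5 models lay above its controls, and anti-CD40 overlapped with them. In DNBS and IL-10 blockade Ptgs2 itself overlapped with its controls, so that the higher ratio came with lower Hpgd alone. Of the 29 mice, DSS mouse 8 alone had more Ptgs2 than Hpgd counts.

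**Figure D3:**
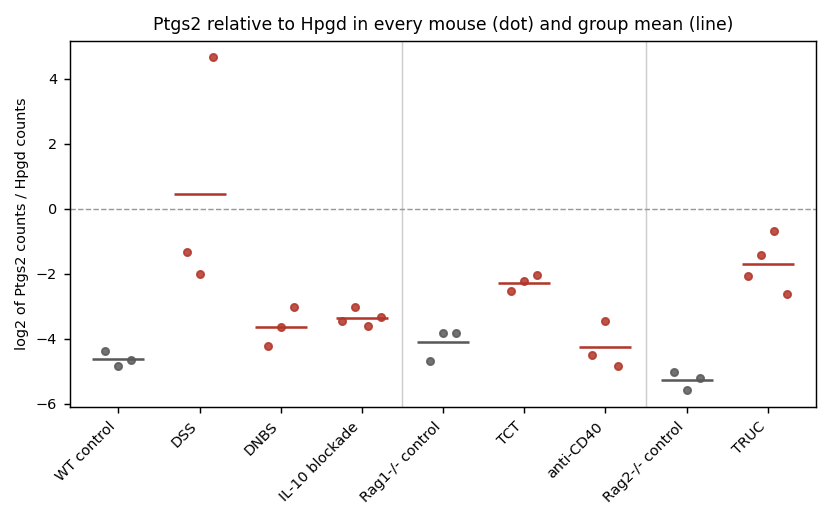
Log2 of the ratio of Ptgs2 to Hpgd counts (y axis) in each mouse (dots) by group (x axis), with group means as lines, controls in grey, models in red and a dashed line at equal counts. DSS mouse 8 lies at 4.65, above the dashed line, and the other 28 mice lie below it.

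Compared per length, the order of the genes was led by Hpgd. Its mean was 132 CPM per kilobase of exon in the wild-type controls, where Ptgs1 had 5.71, Ptgis 5.57, Ptges 3.82, Ptger4 3.07, Alox15 2.36, Ptgs2 2, Alox5 0.986 and Alox12 0.342. In DSS mice 5 and 6, Hpgd had 32.6 and 56, Ptges 6.37 and 7.39 and Ptgs2 4.75 and 5.08 CPM per kilobase, while mouse 8 had 15.8, 23 and 146. On average over the 4 mice in TRUC, Hpgd had 25.1 and Ptgs2 3.07. Across the 9 groups, Hpgd means fell from 223 CPM in the wild-type controls through 204 and 155 CPM in the Rag2-/- and Rag1-/- controls to 42.2 CPM in TRUC, and the means of all 3 control groups lay above those of all 6 models. Of neighbours in that order, the Rag2-/- and Rag1-/- controls alone did not overlap. For Alox5, DSS (9.41 CPM) did not overlap with the next group, the wild-type controls (4.05 CPM), and for Alox12, anti-CD40 (0.555 CPM) lay below all mice of its neighbour, the Rag2-/- controls (1.23 CPM).

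Models that share a control were compared directly to see where they differ. DSS was above DNBS in Ptgs2, Ptges and Alox5 (3 of 9 genes, where 11.4% of all genes were higher) and below it in Hpgd (1 of 9, against 11.2%), with log2 differences of 4.50, 1.48, 1.45 and -1.16. Without DSS mouse 8, only Ptges passed (0.66, adjusted p = 0.0422). In the fits without 1 mouse of either group, 686 to 2368 of all genes were higher in DSS and 923 to 2251 lower. IL-10 blockade was below DSS in Ptgs1, Ptgs2, Ptges, Ptgis, Alox5 and Alox12 (6 of 9, against 25.1%), with differences from -0.93 to -4.89, and above it in Ptger4 (1 of 9, against 24.6%; 0.56, adjusted p = 0.00978). Without DSS mouse 8 the difference was -1.49 for Ptgs2, -0.85 for Ptges and -1.74 for Alox5, all still called, and -0.97 (adjusted p = 0.162) for Alox12, whose call was lost in 5 of the 7 fits without a mouse. The Ptger4 call was lost without mouse 4 with IL-10 blockade (0.36, adjusted p = 0.0547). IL-10 blockade was below DNBS in Ptgs1, Ptgis and Alox12 (3 of 9, against 16.5%) and above it in Ptger4 (1 of 9, against 17.4%; 0.48, adjusted p = 0.0347). Leaving out a mouse lost the Ptgs1 call in 4 of 7 fits (-0.39, adjusted p = 0.253 without DNBS mouse 14) and the Ptger4 call in 4 of 7 (0.27, adjusted p = 0.195 without mouse 4 with IL-10 blockade). TCT was above anti-CD40 in Ptgis, Ptger4, Alox5 and Alox12 (4 of 9, against 11.1%), with differences from 0.64 to 1.93, and below it in 0 of 9, against 7.32%. Of the 6 fits without a mouse, the call was lost in 4 for Ptgis, 3 for Ptger4, 3 for Alox5 and 4 for Alox12, with adjusted p up to 0.169, 0.085, 0.154 and 0.269, the last without TCT mouse 3. For the count of lower genes, 1 (Hpgd) was lower at an unadjusted p under 0.05, and DESeq2 called 1. Hpgd did not pass between IL-10 blockade and DSS (0.48, adjusted p = 0.166) or between TCT and anti-CD40 (-0.70, adjusted p = 0.119).

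A list of 52 other genes of the pathway, of which 50 were matched and 43 tested, was read in the same way. In TRUC 13 of the 43 were higher and 9 lower (against 22.4% and 23.4% of all genes), in DSS 11 and 9 (17.7% and 16.3%), in DNBS 2 and 2 (3.95% and 2.21%), in IL-10 blockade 18 and 5 (27.2% and 26.1%), in TCT 15 and 3 (16.1% and 14%), and in anti-CD40 7 and 5 (10.9% and 10.7%). The median log2 fold changes of the 43 were 0.12, 0.42, 0.11, 0.35, 0.33 and 0.14, against -0.03, 0.02, 0.01, -0.01, 0 and -0.03 for all genes tested. Of the 4 leukotriene receptors, 2 rose in TRUC, 3 in DSS, 3 in IL-10 blockade, 4 in TCT and 2 in anti-CD40, while in DNBS Ltb4r2 alone was higher at an unadjusted p under 0.05 by edgeR (1.09, adjusted p = 0.123). Ltb4r1, the high-affinity receptor of leukotriene B4 on neutrophils, and Ltb4r2 each rose in 5 of 6 models, all but DNBS, with log2 fold changes of Ltb4r1 from 1.68 in anti-CD40 to 3.11 in DSS. Beside them, 7 of 7 neutrophil markers rose in TRUC and DSS, 6 of 7 in IL-10 blockade, TCT and DNBS and 5 of 7 in anti-CD40, and their part was not tested. Alox5ap, the partner protein that presents substrate to the enzyme of Alox5, rose from 0.932 to 1.6 CPM in the wild-type controls to 4.66 to 17.1 CPM in DSS (2.91, adjusted p = 2.4e-05). Without DSS mouse 8, 9 of the 43 were higher and 8 lower in DSS, and Ltb4r1 (1.92) and Alox5ap (2.09) still passed. In the fits without 1 DSS or control mouse, 1940 to 3242 of all genes were higher and 1895 to 3079 lower. Ggt1, which trims leukotriene C4, rose in TRUC (3.16, adjusted p = 0.00428), and Mgst2 fell in DSS (-0.93, adjusted p = 0.00272).

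Of 6 prostanoid receptors tested, 4 fell in TRUC (Ptger3, Ptgfr, Ptger1 and Tbxa2r), where 23.4% of all genes fell, and 2 in IL-10 blockade, where 26.1% fell. In DNBS and anti-CD40 1 each fell, where 2.21% and 10.7% of all genes fell. Rises were called for 2 in DSS (Ptger2 and Ptgir), where 17.7% of all genes rose, and 1 in TCT (Ptgir), where 16.1% rose. Ptger3, a further receptor of prostaglandin E2, fell in 4 of 6 models. It went from 10.7 to 14.3 CPM in the Rag2-/- controls to 1.65 to 4.87 CPM in TRUC (-1.94, adjusted p = 7.64e-05), and the log2 fold change was -1.67 in IL-10 blockade, -1.43 in anti-CD40 and -1.20 in DNBS. Ptgfr, the receptor of prostaglandin F2, fell in TRUC (-1.56, adjusted p = 0.00251) and IL-10 blockade (-1.22, adjusted p = 0.0138). Among the synthases, Hpgds, which makes prostaglandin D2 in blood cells, fell in DNBS (-1.09, adjusted p = 0.0194) and anti-CD40 (-0.88, adjusted p = 0.0281). Cbr1 fell in DSS (-1.36, adjusted p = 0.00228) and anti-CD40 (-1.04, adjusted p = 0.0225), and Akr1b3 in TCT (-0.50, adjusted p = 0.00518). Ptgr1, which acts on prostaglandins after the step of Hpgd, rose in DNBS (0.79, adjusted p = 0.0201).

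Secreted phospholipases gave the largest changes of the list. Pla2g2a stood at 0.762 to 0.902 CPM in the wild-type controls, between 36.8 and 86.2 CPM in DSS, between 1.67 and 21.9 CPM in DNBS and 80.8 to 109 CPM in IL-10 blockade, and the log2 fold changes were 6.17, 3.98 and 6.83. In the Rag2-/- controls it was 89.3 to 217 CPM and in TRUC 1360 to 1570 CPM, and it was 63.4 to 113 CPM in the Rag1-/- controls and 1270 to 1890 CPM in anti-CD40, with log2 fold changes of 3.34 and 4.21. It was called in 5 of 6 models, all but TCT. Pla2g2a is interrupted in C57BL/6 and intact in Balb/C mice. The labels and the methods disagree on the strain of the DSS mice and their controls, though each source gives these 2 groups the same strain. The libraries labelled C57BL/6 Rag1-/- were above those labelled wild-type Balb/C. Which strain each library came from is thus not settled, and strain cannot be told apart from model or control set for this gene. For the other genes, the part of strain or genotype was not tested either. Pla2g2d and Pla2g7 rose in TCT (3.02 and 3.05), Pla2g2d in anti-CD40 (2.45), and Pla2g12b and Pla2g2e in IL-10 blockade (3.64 and 3.88). Pla2g3 fell in DSS from 34.1 to 3.57 CPM on average (-3.23, adjusted p = 4.03e-05), and Pla2g6 and Pla2g12a fell in TCT (-0.86 and -0.52). Pla2g4b was called lower in IL-10 blockade and higher in TCT from means under 1 CPM on both sides, and no fold is given for it. Exons on the other strand overlap several genes of the list, for example Inpp5j over 401 bases of Pla2g3, Gm43618 over 329 of Ptgfr and Gm19719 over 189 of Alox5ap, and reads there cannot be told apart.

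**Figure D4:**
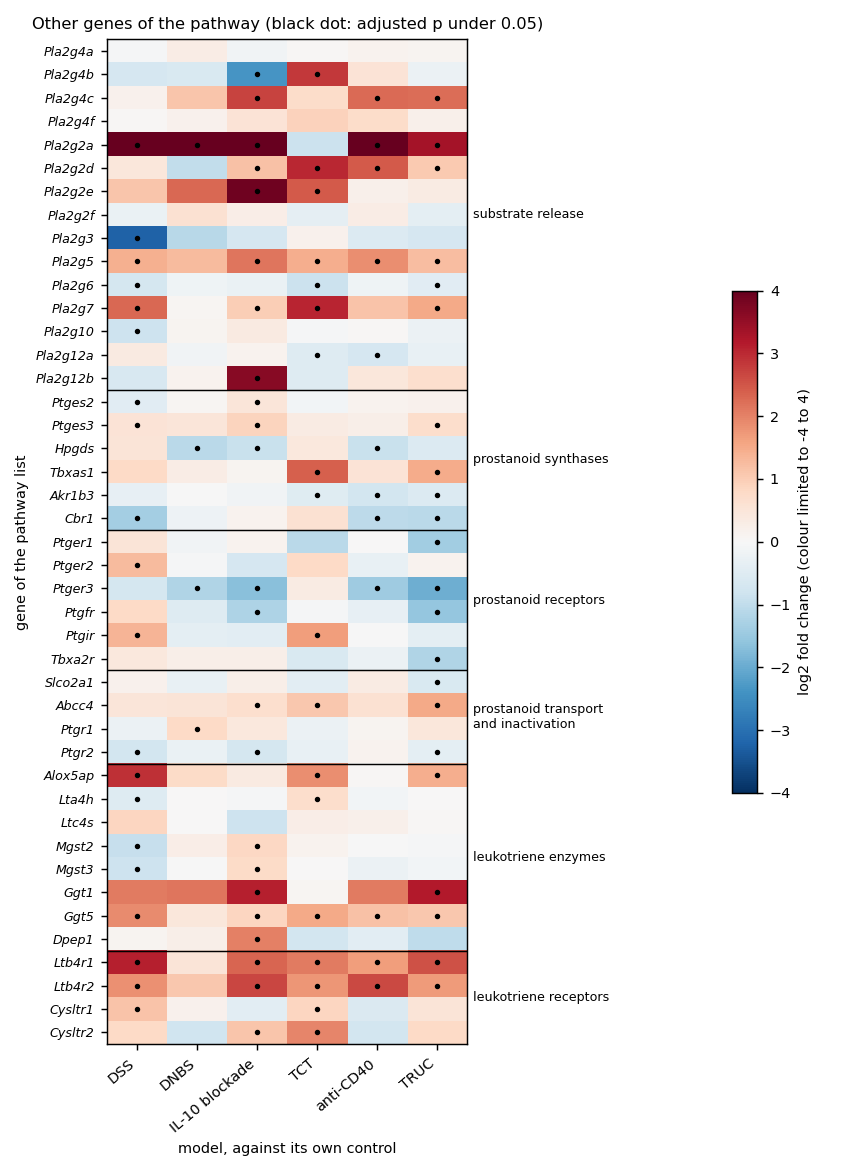
Log2 fold change (colour, red for higher and blue for lower, limited to -4 to 4) of the 43 tested genes of the pathway list (y axis, grouped by role) in each model against its own control (x axis), with a black dot for an adjusted p under 0.05 by edgeR. The rows of Ltb4r1 and Ltb4r2 are red with dots in 5 of 6 columns, Pla2g2a is red with dots in all columns but TCT, and Ptger3 is blue with dots in 4.

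The genes whose level followed each of the 9 most closely over the 29 mice are given as a description, by Pearson correlation of log2 CPM, since mice of a group share its treatment. Hpgd was followed by Gm5485 (0.958), Slc2a13 (0.949) and the brush border protease Mep1a (0.942), and Ptgis by St3gal2 (0.959), Mxra8 (0.949) and Lix1l (0.945). Ptgs2 was followed by G0s2 (0.913), the phosphodiesterase Pde4b (0.902) and Zfp281 (0.898), Ptges by Notch2 (0.91), Slco3a1 (0.91) and Snx18 (0.905), and Ptgs1 by Scarf2 (0.887), Itga9 (0.873) and Ltbp3 (0.872). The myeloid receptor Cd33 (0.874) was among the 3 genes closest to Alox5, after Adgrd1 (0.886) and before Bnip2 (0.869), and the basal keratin Krt14 (0.751) among those closest to Alox12, after Nes (0.776) and Phldb2 (0.753). For Ptger4 (Gm26982 0.778, Cdk9 0.754, Lrrc58 0.73) and Alox15 (Grip1 0.606, Coa5 0.592, 9930014A18Rik 0.589) the closest genes were less close.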

How the data were processed

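RNA-seq was run on the colon of 29 mice, and the authors deposited raw counts of reads per gene. Per the labels, the submitters' processing notes name Trimmomatic, HISAT2, HTSeq and the build GRCm38; versions and the strand setting were not given in the sources used here, so overlapping genes on opposite strands may share reads. The 92 spike-in rows summed to 0 and were left out. The 18616 of 54532 genes whose counts averaged 3 or more were fitted in edgeR 4.0.16 (R 4.3.3, limma 3.58.1) with TMM scaling and the quasi-likelihood test, 1 fit over all 9 groups without covariates, Benjamini-Hochberg adjustment over all genes tested and a threshold of 0.05. A 5 df F test asked whether the changes over the 6 models were equal. DESeq2 1.42.0 and a fit of the 2 groups alone were alternatives, with other scalings, filters, a stricter threshold of 0.01, another control group and leaving out each mouse. CPM used the TMM-scaled library, and CPM per kilobase its exon length. Figures were drawn with matplotlib 3.10.9 in Python 3.11.15.

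The genes and lists were chosen with earlier results of these data known. All 10 genes are described, the 9 tested ones in each model against its control; of the pathway list, up to 3 rises and 3 falls with the largest fold change per comparison among called genes whose groups do not overlap are named, together with the 3 genes most correlated with each of the 9. Other pathway genes named (Ltb4r1 and Ltb4r2 over all models, Ptgir, Ptger2, Tbxa2r) were chosen after their values were seen. The fit was tried on simulated counts of 18616 genes with 200 genes changed 4-fold. It recovered 95% of these for TRUC, 94% for DSS, 95.5% for DNBS, 94.5% for IL-10 blockade, 91% for TCT and 94% for anti-CD40. In the same order, 14, 10, 3, 7, 3 and 7 genes that were not changed were also called. The changed genes were drawn from those with higher counts, so these shares do not cover genes with low counts or changes under 4-fold. Total counts of 10725564 to 14977094 per mouse make 3 counts worth 0.179 to 0.314 CPM, which covers counting error only. Of 33 pairs of mice within a group none had identical counts. The labels do not say how mice were housed or whether they shared a litter, so p-values measure the spread between these mice. Samples were grouped by their labels. Promoters came from a RefSeq table of GRCm38.p6, in which 8 of the 10 genes had an entry.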

Additional observations from a re-analysis of the deposited data

Results flagged for a closer look

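The change from control differed between the 6 models for 8 genes by edgeR's F test, with adjusted p of 0.00527 for Ptgs1, 2.03e-05 for Ptgs2, 0.000183 for Ptges, 1.92e-05 for Ptgis, 0.00174 for Hpgd, 0.00136 for Ptger4, 0.000114 for Alox5 and 0.00051 for Alox12. Each was called in all 29 fits that left out a mouse, and the value for Ptgs2 was then at most 0.000694, without DSS mouse 8. The Alox15 value of 0.0935 became 0.0302 without TCT mouse 3.

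Within groups of 4 mice, a single mouse lay far from the others in 3 cases by Dixon's test. These were Ptgs2 in TRUC mouse 4 (27.8 CPM, against 9.16 to 10 CPM in the other mice), Ptgis in mouse 2 with IL-10 blockade (10.4 CPM, against 6.83 to 7.21 CPM) and Ptger4 in mouse 4 with IL-10 blockade (46.7 CPM, against 28.2 to 30.9 CPM). Chance gives such a mouse in about 1 of 20 groups, and 9 genes were looked at in each of the 2 groups. Groups of 3 mice were not examined in this way, DSS mouse 8 among them.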

How the results depend on the processing

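Of 54 results of a gene in a model, 19 passed the test, 8 of these under every alternative at 0.05 and 11 not. None that passed changed sign, while 11 that did not pass did. The fall of Hpgd passed throughout in TRUC (-2.46 to -2.08), DSS (-2.45 to -1.58), IL-10 blockade (-1.63 to -1.38) and TCT (-1.83 to -1.13). With DESeq2, the counts of genes higher were 3 in TRUC, 1 in anti-CD40, 0 in IL-10 blockade against DSS and 0 against DNBS, and the counts lower were 1 in DNBS, 0 in DSS against DNBS and 1 in TCT against anti-CD40. With edgeR on the 2 groups alone, these were 3 higher in TRUC, 0 higher and 0 lower in DSS against DNBS, 0 higher in IL-10 blockade against DSS and 0 against DNBS, and 1 lower in DNBS and 1 in TCT against anti-CD40. At a threshold of 0.01, 2 were higher in DSS, 0 in DNBS, 0 in TCT, 0 in IL-10 blockade against DNBS and 0 in TCT against anti-CD40, and 0 were lower in anti-CD40. Upper quartile scaling gave 0 higher and 5 lower in IL-10 blockade against DNBS, and no filter gave 0 higher there and 1 lower in anti-CD40. With the other control group, 1 was higher in TCT. The cause of these differences was not tested.

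Leaving out each mouse, the counts higher were 0 to 1 in DNBS, 3 to 5 in DSS, 0 to 2 in TCT, 1 to 3 in DSS against DNBS, 0 to 2 in IL-10 blockade against DSS, 0 to 1 against DNBS and 0 to 3 in TCT against anti-CD40. The counts lower were 2 to 3 in TRUC, 2 to 3 in IL-10 blockade, 0 to 1 in anti-CD40, 0 to 1 in DSS against DNBS, 5 to 6 in IL-10 blockade against DSS and 2 to 4 against DNBS, and 8 to 9 genes passed the F test. Over all genes, leaving out a mouse took DSS against DNBS from 2114 higher and 2093 lower to 686 and 923 at the least (2 and 4 with edgeR on the 2 groups alone), DNBS from 736 and 412 to 156 and 42, DSS from 3299 to 1940 higher and from 3037 to 1895 lower, and anti-CD40 from 2029 and 1986 to 928 and 821.

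Mice with the same number did not deviate together (correlations of 0.0556, 0.0139 and -0.0201 for IL-10 blockade and its control, and -0.0518 and -0.00546 for TRUC and its control), so the numbers pair nothing. With a replicate block, 2 genes were higher in TRUC, Ptgs2 (1.78, adjusted p = 0.000101) and Alox15 (0.93, adjusted p = 0.0238), and counts in IL-10 blockade stayed at 1 higher and 3 lower. No paired analysis was possible because the other models share fewer than 2 numbers with their controls. Depth limits Ptgds, and Alox12 in anti-CD40.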
